A study of Oryctolagus cuniculus with 9 samples.

Results

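Estradiol was given to cultured cells at 50 nM and at 250 nM, and the response described here is the one that both concentrations share against the control. The treated side was the average of the 2 concentration means, taken from 6 libraries (3 at 50 nM and 3 at 250 nM), and it was set against the mean of 3 control libraries, so that all 9 of the 9 libraries of the series were used. The cells were HA-VSMC, an unmodified line by its labels, grown in RPMI1640 medium with 10% fetal bovine serum, and the treated cells were harvested 48 h after β-estradiol, dissolved in DMSO, was added. The labels assign the line to the rabbit (Oryctolagus cuniculus) and the tables use rabbit gene identifiers, but HA-VSMC is also in wide use as the name of a human aortic smooth muscle line; the species was not checked, and the tissue of origin is not stated. They do not say whether the controls received DMSO, and they tag the controls with estrogen as treatment and WT as concentration. Serum can itself carry steroid hormones, and all 3 groups had it. One line stands here for the smooth muscle of the study's question, which is the part that estrogen plays in adenomyosis, the growth of endometrial tissue into the uterine muscle wall. The labels do not state that the replicates of a group are independent cultures, and the p-values below cover the spread among these libraries, technical or not.

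β-Estradiol is the main ovarian estrogen. It binds the nuclear receptors encoded by ESR1 and ESR2, which act on genes directly or through other transcription factors such as AP-1, and it also acts on the membrane receptor GPER1, which signals to kinases. Many of the genes below belong to circuits that switch themselves off. NF-κB, a transcription factor of inflammation, induces its own inhibitors, and MAP kinases induce immediate early genes such as FOS and EGR1 together with the phosphatases that end the signal.

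The libraries held 54718407 to 72274464 deposited units, about 13679602 to 18068616 fragments at 4 units per fragment, and 12324 of 19291 genes had enough counts to be tested. Levels are CPM, which scale a count to the library's total with TMM factors, and differences are log2 fold changes of the treated average over the control, as estimate ± SE, with "rose" and "fell" kept for an edgeR adjusted p under 0.05. Smooth muscle markers were present: ACTA2 lay between 2810 and 3140 CPM in every library, whereas DES was at 0 in all, MYOCD lay between 1.07 and 2.3 CPM, and TAGLN and CNN1 were not analysed here. The summed level of the 7 defining markers in the table was 4870 to 5020 CPM in the controls, 4940 to 5300 CPM at 50 nM and 4890 to 5130 CPM at 250 nM. Of the tested markers of endothelium (5), epithelium (5), leukocytes (3), fibroblasts (10) and striated muscle (1), 0 passed, where 2.35% of all genes did. KDR, EPCAM, ESRP1, ITGAM, SPI1 and TYROBP were at 0 in every library. Fibroblast markers were present. The 10 in the table summed to 2280 to 2330 CPM in the controls, 2290 to 2600 CPM at 50 nM and 2390 to 2470 CPM at 250 nM. The 12 epithelial markers in the table had a summed level of 78.7 to 82.7 CPM in the controls, 69.6 to 88.6 CPM at 50 nM and 75.8 to 88 CPM at 250 nM. KRT14 made up most of it, at 63.6 to 83.7 CPM, and no other epithelial marker exceeded 4.39 CPM. The 5 that were tested had a median log2 fold change of 0.339, which thus came mostly from genes at low levels. The 12 endothelial markers in the table summed to 1.52 to 3.39 CPM per library. In bulk RNA, fewer cells of a type and less RNA per cell cannot be told apart.

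Against the control, 289 genes changed in the average of both concentrations, 134 higher and 155 lower, which is 2.35% of the genes tested (1.09% higher and 1.26% lower). Pooling did not call more genes than the lower concentration alone. The same fit called 401 genes at 50 nM (3.25%) and 38 at 250 nM (0.308%), and 1803 genes had an unadjusted p under 0.05 in the pooled comparison. The gain in precision was small, with a median SE of 0.0812 for the average against 0.0939 and 0.0937 for the single concentrations. The changes were modest: 241 of the 289 were under 1.5-fold, and the median absolute log2 fold change was 0.361, against 0.0852 over all genes tested. In 247 of the 289 the 6 treated libraries did not overlap the 3 controls, a pattern that 7.71% of all tested genes had. On the log2(FPKM + 1) scale, where the median over all genes was -0.0462, limma called 68 genes higher and 217 lower. That fit used no TMM factors, which were 1.009 to 1.029 in the controls and 0.972 to 1.002 in the treated libraries. The split between rises and falls thus depended on scale and normalization together, and their parts were not tested separately. Leaving out control replicate 2 gave 153 calls and control replicate 3 gave 110. Leaving out 50 nM replicate 3 gave 476, and 250 nM replicates 2 and 3 gave 164 and 155. In all, 88 of the 289 genes were also called without each library in turn.

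A gene can pass on the average because 1 concentration alone moved it. A stricter test therefore asked for movement in the same direction at each concentration, taking the larger of the 2 p-values per gene and adjusting it over all genes. By that test 23 genes moved the same way at both concentrations, 0.187% of those tested, 15 upward and 8 downward. The 15 that rose were REL, TNFAIP3, MAB21L3, NFKBIA, SERPINB2, SDC4, BHLHE40, NFKBIZ, KLF10, PLK3, NEDD9, TSC22D2, ENC1 and the genes ENSOCUG00000029235.1 and ENSOCUG00000010753.2, which the table knows by identifier only. The 8 that fell were FOS, DUSP1, HCFC2, CYR61, EDN1, ZBTB11, ENSOCUG00000025112.1 and ENSOCUG00000023743.1. REL, NEDD9, TSC22D2, ENC1, EDN1, ZBTB11 and the 4 identifiers lay outside the naming rule and were chosen after their values were seen. In all 23 the treated and control libraries did not overlap, as in 7.71% of all tested genes, but picking genes by this test favours that pattern. The count rested on single libraries: leaving out control replicates 1 and 3 gave 10 and 5, leaving out 50 nM replicates 1 and 3 gave 14 and 37, and leaving out 250 nM replicates 1, 2 and 3 gave 13, 11 and 5. DUSP1, MAB21L3, NFKBIA and SERPINB2 passed the stricter test without each of the 9 libraries.

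**Figure D1:**
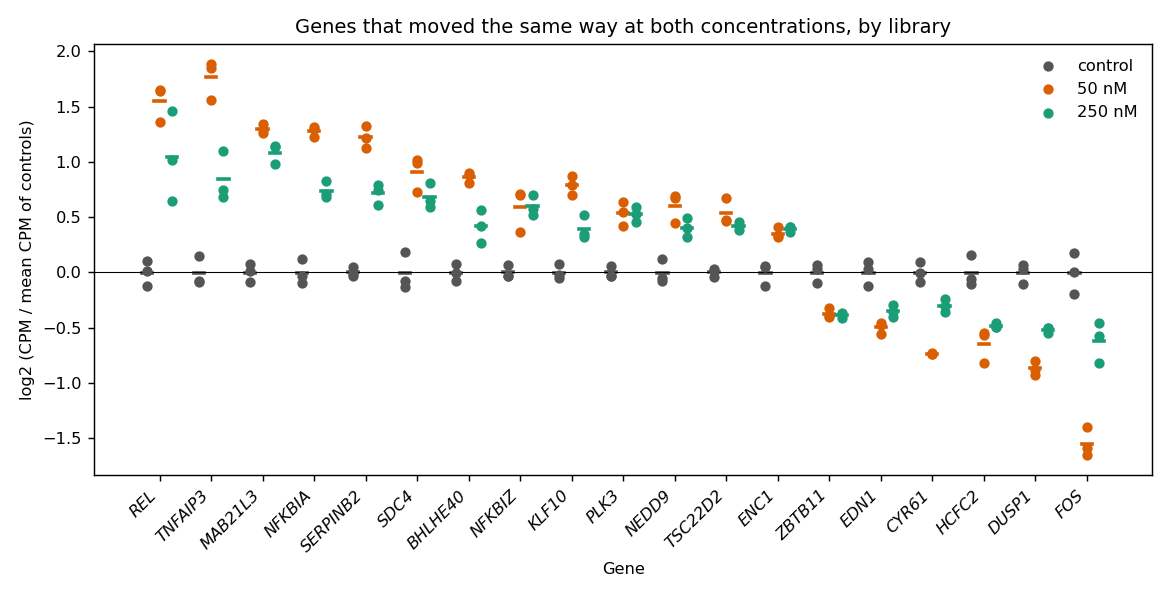
Log2 of CPM over the mean CPM of the controls (vertical) for the 19 genes with a symbol that moved the same way at both concentrations; each point is 1 library, coloured as control, 50 nM or 250 nM estradiol, and bars are group means. For every gene the 6 treated libraries lie on 1 side of the 3 controls, a pattern that the choice of genes favours. For TNFAIP3, NFKBIA and FOS the 250 nM libraries lie between the control and 50 nM.

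The shared rises included feedback inhibitors of NF-κB, an atypical IκB protein and 1 NF-κB subunit. NFKBIA, which encodes the inhibitor IκBα that holds NF-κB in the cytoplasm, had 74.0, 63.5 and 66.7 CPM in the controls, 169, 167 and 159 CPM at 50 nM, and 109, 111 and 121 CPM at 250 nM. All 3 groups were apart, and the average rose by 1.01 ± 0.06 (edgeR adjusted p = 1.97e-07). TNFAIP3, the ubiquitin-editing enzyme A20 that ends NF-κB signalling, had 23.3, 27.3 and 23.1 CPM in the controls, 91.0, 88.6 and 72.2 CPM at 50 nM, and 39.5, 41.1 and 52.7 CPM at 250 nM. Again the 50 nM libraries were highest and the 250 nM libraries lay between, with an average rise of 1.31 ± 0.10 (edgeR adjusted p = 3.19e-06). NFKBIZ, an atypical IκB protein of the nucleus, had 133, 133 and 143 CPM in the controls, 223, 221 and 176 CPM at 50 nM, and 195, 203 and 222 CPM at 250 nM. Here the treated groups overlapped each other and both lay above the controls (0.60 ± 0.07, edgeR adjusted p = 0.000418). REL, the NF-κB subunit c-Rel, was scarce at 1.46 to 1.71 CPM in the controls, 4.09 to 4.99 CPM at 50 nM and 2.49 to 4.37 CPM at 250 nM, and rose by 1.32 ± 0.18 (edgeR adjusted p = 0.00105). Of 16 NF-κB subunits, IκB proteins and feedback inhibitors tested, these 4 rose, against 1.09% of all genes, and 0 fell. The median log2 fold change of the list was 0.112, against -0.00502 over all genes.

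The gene with the lowest p was MAB21L3, a member of the Mab-21 family. It had 75.0, 70.0 and 78.4 CPM in the controls, 189, 179 and 182 CPM at 50 nM, and 147, 163 and 164 CPM at 250 nM. Every treated library was far above the controls, and the average rose 2.29-fold (1.19 ± 0.06, edgeR adjusted p = 1.44e-08). SERPINB2, plasminogen activator inhibitor 2, had 24.9, 23.8 and 23.5 CPM in the controls, 55.9, 60.3 and 52.4 CPM at 50 nM, and 36.7, 40.3 and 41.6 CPM at 250 nM. The 3 groups were apart, with an average rise of 0.97 ± 0.07 (edgeR adjusted p = 9.05e-07). SDC4, a heparan sulfate proteoglycan of focal adhesions, had 30.1, 37.6 and 31.3 CPM in the controls, 65.4, 66.9 and 54.8 CPM at 50 nM, and 51.7, 49.7 and 57.9 CPM at 250 nM. Its treated groups overlapped each other above the controls (0.80 ± 0.09, edgeR adjusted p = 0.000103). Smaller rises, on the log2 scale, were 0.64 ± 0.06 for the clock repressor BHLHE40, 0.60 ± 0.06 for the TGF-β-induced repressor KLF10, 0.51 ± 0.07 for the adhesion scaffold NEDD9 and 0.48 ± 0.06 for TSC22D2.

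The shared falls included a target of MAP kinase signalling, FOS, and a phosphatase that ends it, DUSP1. FOS, the AP-1 subunit c-Fos, had 111, 96.9 and 125 CPM in the controls, 42.0, 35.2 and 36.9 CPM at 50 nM, and 80.6, 74.6 and 62.8 CPM at 250 nM. The 50 nM libraries were lowest and the 250 nM libraries intermediate (-1.08 ± 0.08, edgeR adjusted p = 3.19e-06). DUSP1, a nuclear phosphatase that inactivates MAP kinases, had 322, 293 and 330 CPM in the controls, 181, 171 and 166 CPM at 50 nM, and 222, 222 and 215 CPM at 250 nM. The 3 groups did not overlap (-0.69 ± 0.05, edgeR adjusted p = 1.23e-06). CYR61, a secreted matricellular protein, had 1620, 1530 and 1740 CPM in the controls, 981, 977 and 979 CPM at 50 nM, and 1380, 1320 and 1270 CPM at 250 nM, an average change of -0.52 ± 0.05 (edgeR adjusted p = 1.18e-05). EDN1, the precursor of the vasoconstrictor endothelin 1, had 238, 214 and 249 CPM in the controls, 170, 159 and 168 CPM at 50 nM, and 182, 177 and 190 CPM at 250 nM. All treated libraries lay below the controls (-0.42 ± 0.05, edgeR adjusted p = 0.000486). EDN2, the gene of the related peptide endothelin 2, moved the other way on average (0.69 ± 0.12, edgeR adjusted p = 0.00735, and 0.0584 without control replicate 3), but it did not pass at 250 nM (0.32 ± 0.14, edgeR adjusted p = 0.538).

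Of the 23 genes, 13 showed no difference between the concentrations that passed the test. For some of these the interval of the difference was narrow and included equality, whereas for others it excluded equality. PLK3, a stress-responsive polo-like kinase, had 25.1, 26.7 and 25.1 CPM in the controls, 39.9, 34.3 and 37.4 CPM at 50 nM, and 35.2, 37.0 and 38.7 CPM at 250 nM. It rose by 0.54 ± 0.07 at 50 nM and by 0.53 ± 0.07 at 250 nM, and the difference of 250 nM minus 50 nM was -0.01 (95% interval -0.16 to 0.14). The same difference was 0.00 for NFKBIZ (-0.17 to 0.18), 0.04 for ENC1, an actin-binding kelch protein (-0.09 to 0.17), and -0.02 for ZBTB11, a zinc finger protein (-0.17 to 0.13). ENC1 had 72.9 to 82.6 CPM in the controls and 98.6 to 105 CPM in the treated libraries. ZBTB11 had 27.4 to 30.7 CPM in the controls and 22 to 23.5 CPM after treatment. These are unadjusted intervals of genes picked from the 13 once their differences were seen. Each bounds the difference of its own gene, and they do not bound the 4 jointly at 95%. None of the 4 reached past 0.18 on the log2 scale in either direction. Other genes of the 13 had unadjusted intervals that excluded equality, with the smaller change at 250 nM. They were REL (-0.88 to -0.07), ENSOCUG00000010753.2 (-0.69 to -0.17), MAB21L3 (-0.34 to -0.08), SDC4 (-0.43 to -0.03), NEDD9 (-0.36 to -0.04) and EDN1 (0.01 to 0.28). The intervals of TSC22D2, HCFC2 and ENSOCUG00000029235.1 included equality.

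Averaging both concentrations called 29 genes that passed at neither concentration alone, 9 higher and 20 lower. None of them was among the genes that differed between the concentrations, as 0.325% of all tested genes did. Picking genes that passed at neither concentration left little room for such a difference. Their median absolute log2 fold change was 0.325, and 26 were under 1.5-fold. The naming rule takes the 10 of lowest p with at least 5 CPM: SMAD3, KANSL1, PPP1R10 and ATF3, which rose, and MTMR6, ZNF629, SESN2, JAG1, INSIG1 and SASS6, which fell. ATF3, a stress-induced transcription factor, had 28.2, 27.6 and 28.8 CPM in the controls, 33.4, 30.9 and 34.2 CPM at 50 nM, and 34.4, 33.4 and 34.7 CPM at 250 nM. The treated libraries all lay above, by 0.25 ± 0.06 (edgeR adjusted p = 0.032), while 50 nM alone gave an edgeR adjusted p of 0.089 and 250 nM alone 0.126. SMAD3, which carries TGF-β signals to the nucleus, had 15.6, 13.9 and 14.4 CPM in the controls, 18.9, 19.4 and 16.6 CPM at 50 nM, and 19.2, 18 and 17.5 CPM at 250 nM. It rose by 0.32 ± 0.07 (edgeR adjusted p = 0.034), with the same estimate of 0.32 ± 0.09 at each concentration.

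The falls found by averaging included genes of stress, Notch signalling and cholesterol control. SESN2, a sestrin that restrains mTORC1 under stress, had 33.7, 34.1 and 30.0 CPM in the controls, 25.0, 26.4 and 28.6 CPM at 50 nM, and 25.3, 26.7 and 27.8 CPM at 250 nM, a change of -0.29 ± 0.07 (edgeR adjusted p = 0.0302). JAG1, a Notch ligand, had 17.3, 18.9 and 19.1 CPM in the controls, 14.0, 13.6 and 15.9 CPM at 50 nM, and 15.5, 15.1 and 12.9 CPM at 250 nM (-0.35 ± 0.08, edgeR adjusted p = 0.0315). INSIG1, which retains the sterol sensor SCAP in the endoplasmic reticulum, had 15.9, 16.1 and 12.9 CPM in the controls, 11.2, 11.4 and 11.9 CPM at 50 nM, and 12.5, 11.0 and 9.97 CPM at 250 nM (-0.40 ± 0.09, edgeR adjusted p = 0.0315). In these 3 genes all treated libraries lay below the controls and the treated groups overlapped each other. These calls sat close to the threshold. Each of the 10 named genes lost the call without at least 6 of the 9 libraries, with edgeR adjusted p up to 0.204 (KANSL1 and PPP1R10 without control replicate 3). That highest p was 0.18 for MTMR6 and JAG1, 0.165 for SMAD3, 0.159 for SASS6 and 0.114 for ATF3, all without control replicate 3. Without control replicate 2 it was 0.149 for ZNF629, 0.136 for INSIG1 and 0.117 for SESN2.

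In 25 of the 289 genes the 2 concentrations also differed from each other, which is 8.65% of them, whereas 0.325% of all tested genes (40) differed. In all 25, the 250 nM mean lay nearer to the control than the 50 nM mean did: 11 genes that rose were lower at 250 nM, and 14 that fell were higher. Other settings had exceptions: the same held for 56 of 59 such genes with DESeq2, 34 of 35 with no filter, 32 of 33 without 50 nM replicate 3 and 14 of 15 without 250 nM replicate 1. The direction was general among the genes called. For 256 of the 289 (88.6%) the 250 nM estimate was nearer to the control, against 59.4% over all tested genes. The median of 250 nM minus 50 nM was -0.144 over the 134 rises and 0.155 over the 155 falls, and -0.00278 over all genes. The pooled estimate and this difference are independent only where the groups have like spread; the median SD of log2 CPM was 0.115 in the controls, 0.119 at 50 nM and 0.0891 at 250 nM. In other settings and without each library the share nearer to the control ranged from 83.7% to 91.6%. It was not the case for every gene: IL6, the cytokine interleukin 6, was picked once its values were known and had 18.4, 15.4 and 18.3 CPM in the controls, 25.8, 22.8 and 19.2 CPM at 50 nM, and 23.6, 28.3 and 28.1 CPM at 250 nM (average rise 0.50 ± 0.10, difference 0.24, 95% interval 0.01 to 0.47, edgeR adjusted p of the difference 0.846).

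**Figure D2:**
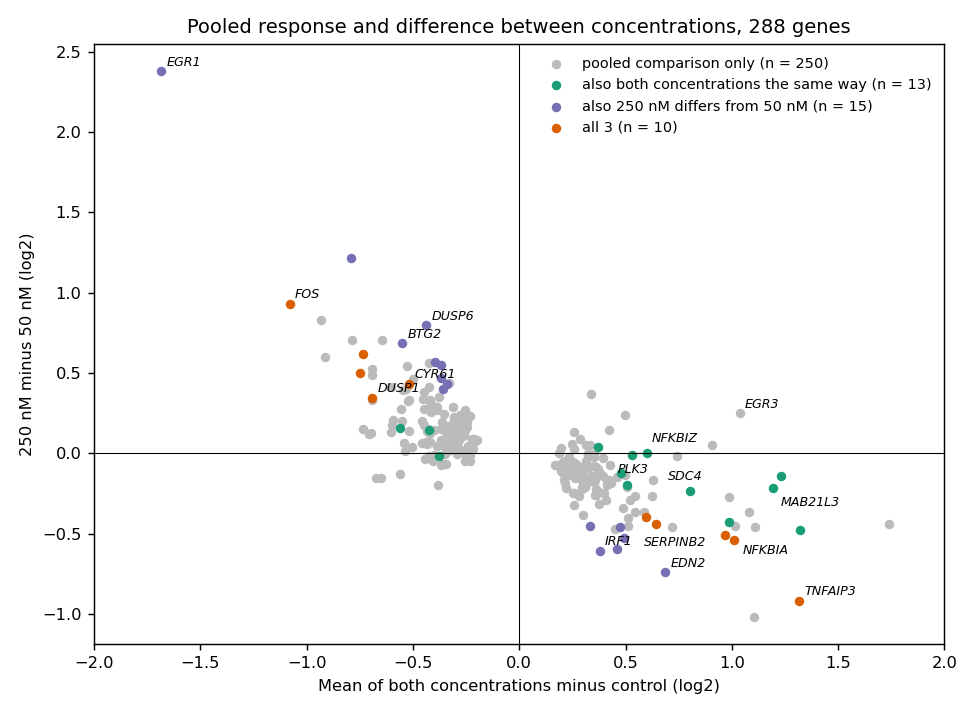
Log2 fold change of the average of both concentrations over control (horizontal) against the log2 difference of 250 nM minus 50 nM (vertical) for 288 of the 289 genes called, coloured by the further tests each passed. Rises gather below 0 and falls above 0 on the vertical axis, and the coloured points show that the 25 genes with a tested difference all do so; LGI4, with 0 counts in the 3 controls, is not drawn.

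For some of these genes the average describes neither concentration. EGR1, a zinc finger transcription factor induced by growth factors, had 275, 299 and 341 CPM in the controls, 47.8, 45.9 and 30.9 CPM at 50 nM, and 236, 243 and 170 CPM at 250 nM. The 50 nM libraries stood far below the others and the 250 nM libraries just below the controls. The average was -1.69 ± 0.12 (edgeR adjusted p = 1.23e-06), made of -2.87 ± 0.16 at 50 nM and -0.50 ± 0.14 at 250 nM, where EGR1 did not pass (edgeR adjusted p = 0.231). The difference between the concentrations was 2.38 ± 0.15 (edgeR adjusted p = 1.4e-06). When the 6 treated libraries were fitted as 1 group, so that this difference counted as spread, EGR1 lost the call (log2 fold change -1.24, edgeR adjusted p = 0.254), and 157 genes were called in all. Of the 84 called genes that were named by rule or passed the stricter test, 23 lost the call in that fit. The edgeR adjusted p was 0.377 for DUSP6, 0.216 for IER3, 0.196 for AHDC1, 0.194 for KLF6, 0.19 for IRF1, 0.174 for TIPARP, 0.138 for BTG2 and ID1, 0.127 for PER1, 0.12 for CLK1, 0.0967 for EDN2 and 0.0831 for HK2. For DDIT3, ECT2, HES1, HSPA2, PDLIM7, RBPJ, RSBN1, TGFBR2, WLS and ZNF182 it lay between 0.0534 and 0.0684.

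DUSP6 and IER3 fell at 50 nM, did not pass at 250 nM and differed between the concentrations. DUSP6, the cytoplasmic phosphatase of ERK, had 15.9, 13.7 and 16.2 CPM in the controls, 9.36, 8.26 and 8.01 CPM at 50 nM, and 15.2, 14.6 and 14.8 CPM at 250 nM. Its 250 nM libraries lay within the range of the controls, and its average of -0.44 ± 0.08 (edgeR adjusted p = 0.00932, and 0.0887 without control replicate 3) was made of -0.84 ± 0.10 at 50 nM and -0.04 ± 0.09 at 250 nM (edgeR adjusted p = 0.968). IER3, a regulator of survival and ERK signalling, had 337, 292 and 304 CPM in the controls, 202, 194 and 201 CPM at 50 nM, and 289, 286 and 298 CPM at 250 nM, with -0.37 ± 0.05 on average (edgeR adjusted p = 0.000972) and -0.09 ± 0.06 at 250 nM (edgeR adjusted p = 0.719). BTG2, an antiproliferative p53 target, and AHDC1 behaved likewise, with averages of -0.55 ± 0.07 and -0.40 ± 0.05 and values of -0.21 ± 0.09 and -0.11 ± 0.06 at 250 nM that did not pass (edgeR adjusted p = 0.472 and 0.658). IRF1, a transcription factor of the interferon response, had 36.6 to 40.1 CPM in the controls, 58.2 to 63.1 CPM at 50 nM and 38.9 to 41.2 CPM at 250 nM. IRF1 thus rose on average (0.38 ± 0.06, edgeR adjusted p = 0.00193) with 0.08 ± 0.06 at 250 nM (edgeR adjusted p = 0.836).

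Immediate early genes split by member in the average. Of 25 tested, 5 rose (EGR3, ATF3, KLF10, CSRNP1 and PLK3) and 7 fell (EGR1, FOS, IER3, KLF6, ZFP36, BTG2 and CYR61), 48% of the list against 2.35% of all genes. The median of the list was 0.093 in the average, -0.167 at 50 nM and 0.139 at 250 nM, and it turned negative over genes of at least 5 CPM (-0.0648), on log2(FPKM + 1) and log2(FPKM + 0.1) (-0.00857 and -0.0134) and without control replicate 1 (-0.0505). EGR3, a relative of EGR1 and a known estrogen-induced gene, went the other way from EGR1. It had 1.24, 1.27 and 1.46 CPM in the controls, 2.93, 2.59 and 1.94 CPM at 50 nM, and 3.08, 2.94 and 2.86 CPM at 250 nM, a rise of 1.04 ± 0.18 (edgeR adjusted p = 0.00491) at a low level. CSRNP1 and ZFP36, chosen after their values were seen, rose by 0.42 ± 0.06 and changed by -0.46 ± 0.08. KLF6 changed by -0.34 ± 0.07 and lost the call without control replicate 3 (edgeR adjusted p = 0.161) and without 250 nM replicate 3 (0.0593); ATF3 did so without 7 libraries.

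**Figure D3:**
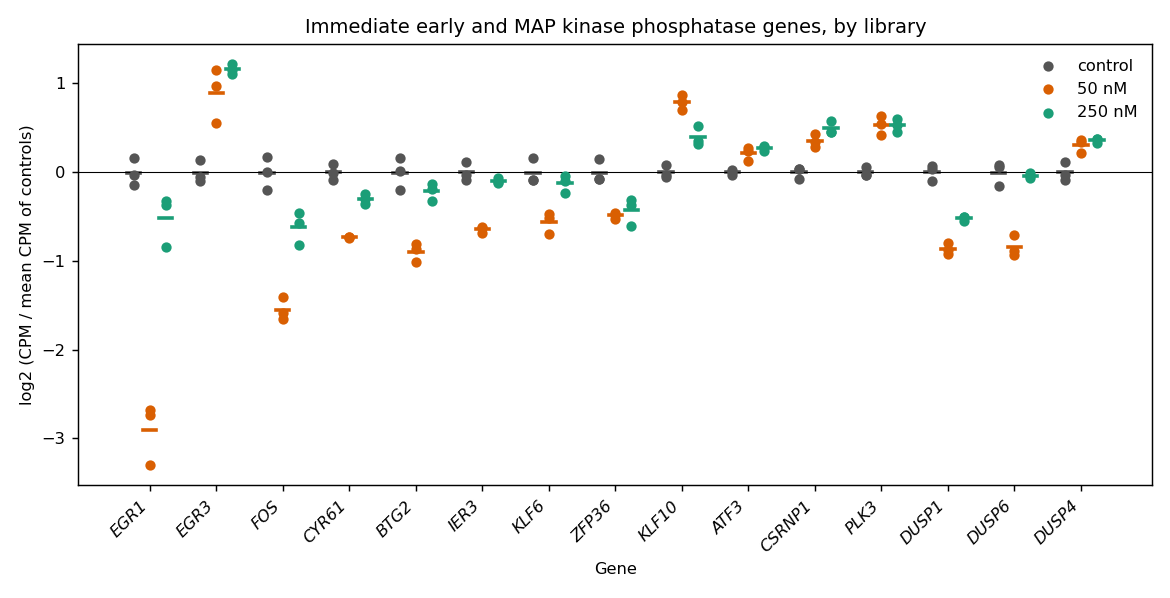
Log2 of CPM over the mean CPM of the controls (vertical) for 15 immediate early and MAP kinase phosphatase genes; each point is 1 library of the control, 50 nM or 250 nM group, and bars are group means. EGR1, DUSP6, IER3 and BTG2 are lowest at 50 nM, whereas PLK3, ATF3 and DUSP4 lie above the controls at both concentrations.

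Phosphatases of the MAP kinases did not move together either. DUSP4, a nuclear ERK phosphatase, had 181, 175 and 200 CPM in the controls, 234, 215 and 238 CPM at 50 nM, and 240, 233 and 240 CPM at 250 nM. It rose by 0.33 ± 0.05 (edgeR adjusted p = 0.00331), with 0.05 between the concentrations (95% interval -0.08 to 0.18), while DUSP1 and DUSP6 fell. Of 21 MAP kinase feedback inhibitors and pathway targets, 5 rose (DUSP4, DUSP16, ETV5, LIF and HBEGF) and 2 fell, against 2.35% of all genes called in either direction. HBEGF, an EGF receptor ligand shed from the cell surface, had 17.4, 20.5 and 19.8 CPM in the controls, 36.5, 28.8 and 32.2 CPM at 50 nM, and 25.1, 26.9 and 29.1 CPM at 250 nM, and rose by 0.63 ± 0.08 (edgeR adjusted p = 0.000972). All its treated libraries were above the controls. MAP3K8, the kinase TPL2 that links inflammatory receptors to ERK, rose by 0.54 ± 0.09 (edgeR adjusted p = 0.00362). DUSP16, ETV5 and LIF were outside the naming rule and were chosen after their values were seen; LIF, a cytokine of the interleukin 6 family, went from 292 to 330 CPM in the controls to 362 to 427 CPM after treatment.

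Inflammatory effectors rose where they changed. Of 20 tested, 5 rose, against 1.09% of all genes (IL6, CSF3, LIF, ICAM1 and ACOD1), 0 fell and the median was 0.226; in 9 of the 20 all treated libraries lay above the controls, a pattern that 3.8% of all genes had. CSF3, a granulocyte growth factor, had 109, 102 and 94.5 CPM in the controls, 175, 192 and 154 CPM at 50 nM, and 115, 135 and 155 CPM at 250 nM, and rose by 0.59 ± 0.09 (edgeR adjusted p = 0.00193). ACOD1, which makes the antimicrobial metabolite itaconate, rose by 0.99 ± 0.16 (edgeR adjusted p = 0.00321) from 4.01 to 5.08 CPM in the controls to 7.06 to 11.6 CPM in the treated libraries. ICAM1, an adhesion molecule for leukocytes, rose by 0.25 ± 0.05 (edgeR adjusted p = 0.0109), and lost the call without control replicate 2 (0.0536) or 3 (0.0939). The summed leukocyte markers were 258 to 271 CPM in the controls and 258 to 276 CPM at 50 nM, from LCP1 and CORO1A for the most part.

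Matrix genes had small and mostly positive estimates at both concentrations. Of 44 collagens and matrix genes, 39 had a positive estimate, whereas 48.3% of all tested genes did, and in 16 all treated libraries lay above the controls, against 3.8% of all genes. The median was small at 0.12, and it was 0.146 at 50 nM and 0.113 at 250 nM. The 3 that rose, where 1.09% of all genes did, were THBS1, COL1A1 and COL1A2. THBS1, the matricellular protein thrombospondin 1 that activates TGF-β, had 1440, 1540 and 1570 CPM in the controls, 2300, 2230 and 1920 CPM at 50 nM, and 1860, 1940 and 1890 CPM at 250 nM, a rise of 0.41 ± 0.05 (edgeR adjusted p = 0.000945). COL1A1, a chain of type I collagen, had 6970, 6990 and 7240 CPM in the controls, 7860, 8320 and 7860 CPM at 50 nM, and 8320, 8350 and 7940 CPM at 250 nM, a rise of 0.20 ± 0.04 (edgeR adjusted p = 0.00902). Its partner chain COL1A2 rose by 0.19 ± 0.03 (edgeR adjusted p = 0.00777). Both collagen genes lost the call on the log2(FPKM + 1) scale, which had no TMM factors. The limma adjusted p was 0.132 for COL1A1 and 0.173 for COL1A2.

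Matrix proteases had mostly positive estimates as well. Of 37 proteases and inhibitors, those that rose included PLAU (urokinase) and SERPINB2, and 0 fell, with 30 positive estimates and a median of 0.0915. The share called was 8.11%, against 2.35% of all genes. PLAU had 199 to 227 CPM in the controls and 241 to 275 CPM after treatment (0.29 ± 0.05, edgeR adjusted p = 0.00671). Of 21 TGF-β and BMP targets, those that rose included ID1 and the receptor gene TGFBR2, and 0 fell, while 12 estimates were positive and 9 negative (median 0.14). The share called was 14.3%. ID1, an inhibitor of basic helix-loop-helix factors, overlapped the controls at 250 nM (66.4 to 67.7 CPM against 47.6 to 69.5 CPM) and had 74.8 to 102 CPM at 50 nM. ID1 lost the call without 6 of the libraries (edgeR adjusted p up to 0.204) and TGFBR2 without 7 (up to 0.209), both highest without control replicate 3. Of 13 Notch pathway genes, the target HES1 and its transcription factor RBPJ rose and the ligand JAG1 fell, 23.1% of the list. HES1 had 3.88 to 5.45 CPM in the controls, 7.88 to 9.43 CPM at 50 nM and 5.3 to 7.9 CPM at 250 nM (0.72 ± 0.14, edgeR adjusted p = 0.0156, and 0.12 without control replicate 3), and RBPJ lost the call without 7 libraries (edgeR adjusted p up to 0.137, without control replicate 1).

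Genes of mitosis had small negative estimates throughout. All 42 tested were negative, from -0.53 to -0.02 with a median of -0.145, in 9 all treated libraries lay below the controls, against 3.91% of all genes, and 7 fell, against 1.26% of all genes, and 0 rose. The 7 were TTK, CENPE, ECT2, ASPM, CDCA8, SGO1 and SGO2. SGO2, a shugoshin that protects cohesion at centromeres, had 20, 22 and 24.3 CPM in the controls, 13.2, 13.1 and 13.6 CPM at 50 nM, and 18.5, 18.6 and 15.7 CPM at 250 nM (-0.53 ± 0.08, edgeR adjusted p = 0.00183). SGO1, its paralog, had 16.1, 20.5 and 18.2 CPM in the controls, 13.3, 12.7 and 13.7 CPM at 50 nM, and 14.3, 14.4 and 12.8 CPM at 250 nM (-0.43 ± 0.08, edgeR adjusted p = 0.0105). Here the treated groups overlapped each other. ECT2, which starts the contractile ring of dividing cells, had 41.9 to 45.7 CPM in the controls and 30.6 to 39.0 CPM after treatment (-0.31 ± 0.06, edgeR adjusted p = 0.0126). Without control replicate 2 the calls of ECT2 and SGO1 were lost (edgeR adjusted p = 0.0616 and 0.0708), as they were without control replicate 3 (0.091 and 0.0584). TTK, CENPE, ASPM and CDCA8 were chosen after their values were seen. Of 41 genes of DNA replication and G1/S, 0 passed, and their median was -0.06.

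Of 24 p53 targets, 6 fell and 1 rose, against 1.26% and 1.09% of all genes. The 6 were CDKN1A, CCNG2, SESN2, SESN3, BTG2 and TP53INP1, most of which restrain growth or the cell cycle, and PLK3 rose. CCNG2, an atypical cyclin of quiescent cells, had 41.3, 42.9 and 40.1 CPM in the controls, 30.8, 29.7 and 27.1 CPM at 50 nM, and 32.8, 30.6 and 33.3 CPM at 250 nM. Its treated groups lay together below the controls (-0.43 ± 0.06, edgeR adjusted p = 0.00105). CDKN1A, the cyclin-dependent kinase inhibitor p21, chosen after its values were seen like SESN3 and TP53INP1, had 399 to 404 CPM in the controls, 304 to 331 CPM at 50 nM and 358 to 381 CPM at 250 nM (-0.24 ± 0.04, edgeR adjusted p = 0.0106).

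Metabolic and stress lists held few calls, and these are to be read beside the 2.35% of all genes called. In lists of this size 1 call is little above that share, as for the cholesterol (4.35%), interferon (4.17%) and YAP/TAZ (4.35%) lists. Of 23 cholesterol genes only INSIG1 passed, 19 had a negative estimate, the median was -0.141 and in 7 all treated libraries lay below the controls, against 3.91% of all genes. Of 26 heat shock genes, HSPA8 (-0.24 ± 0.04, edgeR adjusted p = 0.00311; 1790 to 1840 CPM in the controls, 1400 to 1490 at 50 nM and 1600 to 1650 at 250 nM) and HSPA2 fell. In the unfolded protein response, the sensor kinase EIF2AK3 (-0.39 ± 0.07, edgeR adjusted p = 0.00562) and HERPUD1 fell and DDIT3 rose, of 24 tested. In glycolysis and hypoxia, HK2, which phosphorylates glucose, rose (0.49 ± 0.08) and PFKFB3 fell (-0.31 ± 0.06), of 29 tested, with HK2 at 0.23 ± 0.09 and not called at 250 nM (edgeR adjusted p = 0.439). The clock genes BHLHE40 and PER1 rose, of 16 tested, and the splicing genes CLK1 and SRSF5, of 32. Of 24 interferon response genes IRF1 rose, of 23 YAP/TAZ targets CYR61 fell, and of 14 KLF and SP factors KLF10 rose and KLF6 fell. Of 20 NRF2 antioxidant, 23 ribosomal protein and 28 oxidative phosphorylation genes, 0 passed. DDIT3 and PER1 lost the call without 8 libraries (edgeR adjusted p up to 0.186 and 0.205), HERPUD1 without 7 (0.119) and HSPA2 without 5 (0.0925). SRSF5 lost it without control replicate 2 (0.0632), and PFKFB3 without control replicate 3 (0.0522).

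**Figure D4:**
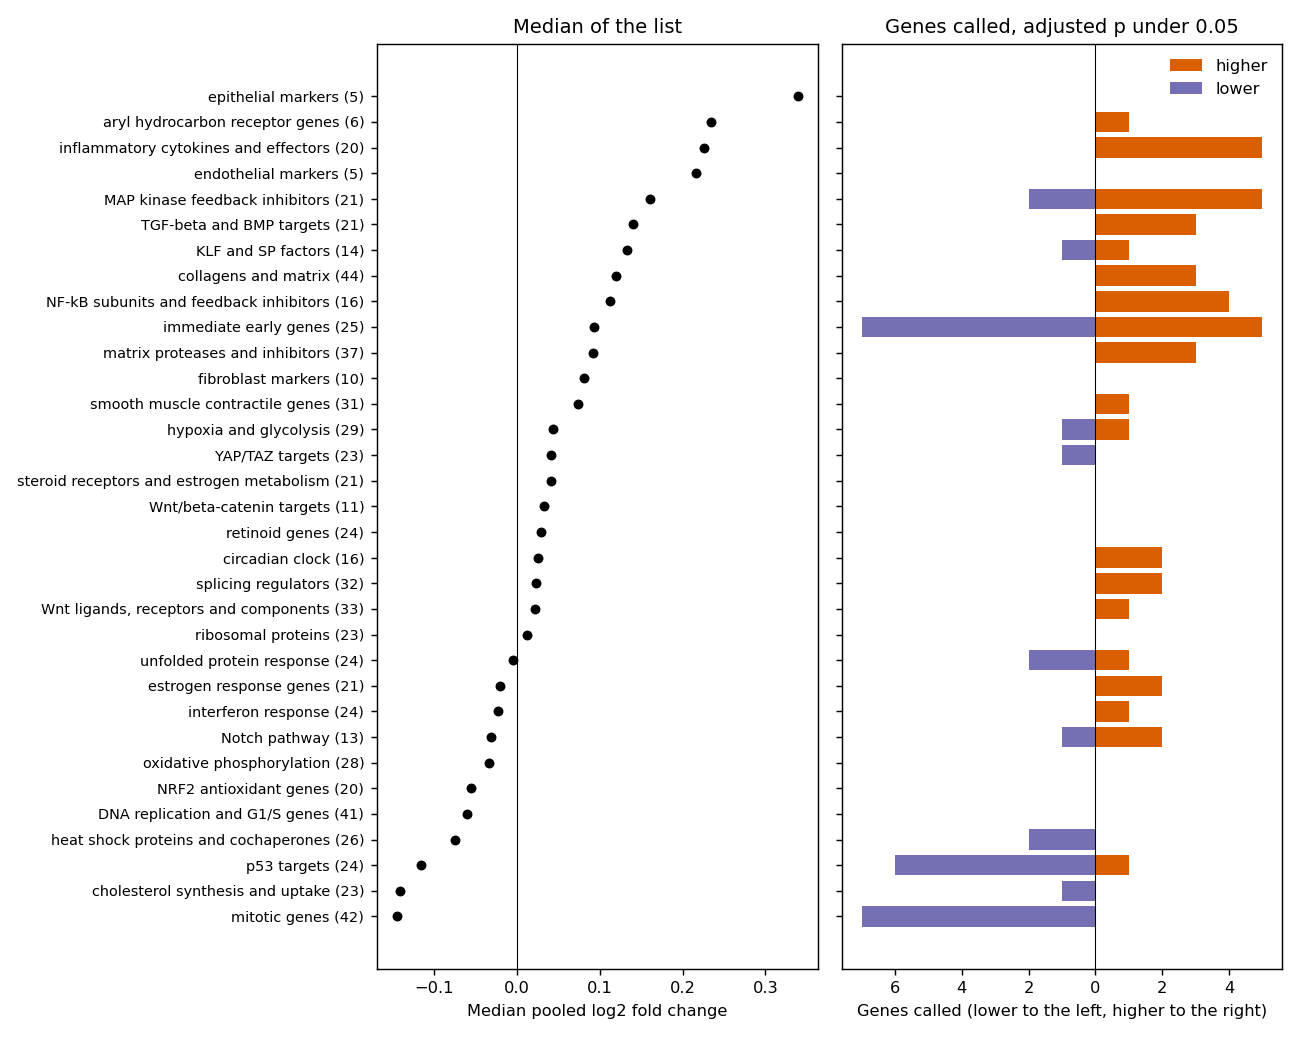
Median log2 fold change of the average over control for each gene list with at least 5 genes tested, the number tested in parentheses (left), and the number of members called lower (to the left of 0) or higher (to the right) in the average (right). Inflammatory, MAP kinase feedback and matrix lists lie above 0, mitotic, cholesterol and p53 lists below 0, and the immediate early list has calls on both sides. Epithelial markers have the highest median and 0 calls, and apart from KRT14 they lie at low levels.

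Among the largest falls were also genes with no common list. LCA5, a ciliary protein, had 12.4, 14.9 and 13.1 CPM in the controls, 6.54, 7.3 and 8.39 CPM at 50 nM, and 8.92, 9.68 and 9.35 CPM at 250 nM (-0.69 ± 0.09, edgeR adjusted p = 0.00105). HCFC2, a relative of the chromatin-bound host cell factor, had 29.1, 34.9 and 30.0 CPM in the controls, 21.1, 21.4 and 17.8 CPM at 50 nM, and 22.3, 22.8 and 22.2 CPM at 250 nM (-0.56 ± 0.07, edgeR adjusted p = 0.000972). All treated libraries of both genes lay below the controls. HOXC6, a positional homeobox factor, changed by -0.56 ± 0.08, PANK1, a pantothenate kinase of coenzyme A synthesis, by -0.52 ± 0.09, HOMEZ by -0.60 ± 0.10 and ZNF862 by -0.55 ± 0.08. Their edgeR adjusted p was 0.00476 or lower. CCDC51, RNF219, RSBN1 and ZNF182 also fell, by estimates of -0.60, -0.54, -0.52 and -0.46, and KCTD11 rose by 0.54. Without control replicate 3 the edgeR adjusted p was 0.155 for RNF219, 0.159 for RSBN1, 0.193 for ZNF182 and 0.108 for KCTD11, and for CCDC51 it was 0.123 without control replicate 1.

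The receptors of estradiol were scarce and did not pass. ESR1 had 2.12, 1.38 and 1.28 CPM in the controls, 0.833, 1.66 and 1.89 CPM at 50 nM, and 1.56, 0.899 and 2.22 CPM at 250 nM (-0.07 ± 0.30, 95% interval -0.72 to 0.57, edgeR adjusted p = 0.954). ESR2 lay between 0.605 and 1.11 CPM in all libraries (edgeR adjusted p = 0.971), and GPER1 was at 0 in 7 libraries, with 15 units in 50 nM replicate 1 and 8 in 250 nM replicate 1. PGR, the progesterone receptor and a classic estrogen target in the uterus, had 11.9, 11.6 and 13.0 CPM in the controls, 10.2, 12 and 11.8 CPM at 50 nM, and 12, 12.9 and 10.5 CPM at 250 nM. The groups overlapped, and the interval of its change was -0.27 to 0.11 (-0.08 ± 0.09, edgeR adjusted p = 0.775). Of 21 estrogen response genes, EGR3 and TIPARP rose and 0 fell, with a median of -0.0208 that was positive in 3 other settings (up to 0.0131). The share called was 9.52%, against 2.35% of all genes. TIPARP, a mono-ADP-ribosyltransferase, rose at 50 nM (0.56 ± 0.08) and had 0.11 ± 0.08 at 250 nM; its average (0.34 ± 0.07, edgeR adjusted p = 0.0214) lost the call without control replicate 1 (0.0925), control replicate 2 or 250 nM replicate 2. Of 21 steroid receptors and estrogen metabolism genes, 0 passed.

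STRA6, the retinol-binding protein receptor in the study's title, had 88.1, 89.2 and 79.1 CPM in the controls, 91.3, 115 and 92.4 CPM at 50 nM, and 95.1, 96.3 and 99.3 CPM at 250 nM. All 6 treated libraries lay above the 3 controls, as in 3.8% of all genes. The average was 0.20 ± 0.07, with an unadjusted 95% interval of 0.05 to 0.35, and it did not pass (edgeR adjusted p = 0.178). Pooling left STRA6 short of the threshold, as did the single concentrations (edgeR adjusted p = 0.181 at 50 nM and 0.554 at 250 nM). None of the 24 retinoid genes tested passed. CTNNB1, which encodes β-catenin, had 817, 791 and 852 CPM in the controls, 864, 864 and 869 CPM at 50 nM, and 864, 826 and 839 CPM at 250 nM (0.06 ± 0.04, 95% interval -0.03 to 0.15, edgeR adjusted p = 0.579). None of 11 genes that β-catenin is known to induce passed, where 2.35% of all genes did. Of these 11, however, 2 differed between 250 nM and 50 nM, against 0.325% of all genes. Of 33 Wnt ligands, receptors and components WLS, the carrier of Wnt ligands to the cell surface, rose by 0.17 ± 0.04 (edgeR adjusted p = 0.0421), from 708 to 737 CPM in the controls to 777 to 843 CPM. That call was lost without 8 of the 9 libraries, with edgeR adjusted p up to 0.128 without control replicate 3. Of 31 smooth muscle contractile genes PDLIM7 rose (0.26 ± 0.06, edgeR adjusted p = 0.0421, and up to 0.241 without control replicate 3), 0 fell and the median was 0.0735. The shares called were 3.03% of the Wnt components and 3.23% of the contractile genes, near the 2.35% of all genes.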

How the data were processed

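Per gene and library, the authors deposited FPKM values beside estimated counts. The submitters' processing notes name Trim Galore, TopHat2 2.1.1, and Cufflinks with Cuffdiff. The genome build is not given in the sources used here, nor is the annotation. Low counts pile up at 4 units, so about 4 units stand for 1 fragment. The labels name a small RNA kit for the mRNA libraries. Strand use is not stated, so overlapping, antisense and near-identical genes could share counts. The treatment protocol states 250 nM only; 50 nM comes from the sample titles.

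Counts were tested in R 4.3.3 with edgeR 4.0.16 (quasi-likelihood test, TMM factors, filterByExpr with minimum count 10, 1 mean per group, all 9 libraries, Benjamini-Hochberg threshold 0.05). The contrast was the mean of both treated group means minus control. Alternatives used limma 3.58.1, including log2 of the deposited FPKM values plus 1 or 0.1, and DESeq2 1.42.0. The FPKM fits used no TMM factors. The method was tested on 1 set of simulated data, with the same change at both concentrations. Of 172 pooled calls, 14 were false. Changes of 1.25-fold were recovered for 52% of 50 genes in the pooled comparison and 16% in the stricter test. At 1.5-fold these shares were 80% and 74%.

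The comparison and the 35 gene lists were chosen with earlier results of these data known. Named genes were the 15 largest rises and 15 largest falls (symbol, at least 5 CPM, no overlap of treated and control libraries), up to 3 called members of lowest p per list, the 10 of lowest p called in the average alone, the 10 of lowest p that also differed between concentrations, and STRA6, ESR1, ESR2, GPER1, PGR and CTNNB1. Of 13318 symbols, 12500 matched a RefSeq gene table (mOryCun1.1). A planned search of promoter motifs was not run, because no promoter sequences were used here.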

Additional observations from a re-analysis of the deposited data

Results flagged for a closer look

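A difference between the 2 concentrations that passes its own test (250 nM minus 50 nM, edgeR adjusted p under 0.05) singled out 21 of the genes described above, on the log2 scale. Rises that were smaller at 250 nM were those of TNFAIP3 (-0.916), EDN2 (-0.739), IRF1 (-0.605), CLK1 (-0.594), NFKBIA (-0.537), HK2 (-0.526), SERPINB2 (-0.508), TIPARP (-0.451), BHLHE40 (-0.442) and KLF10 (-0.394). Falls that were smaller at 250 nM were those of EGR1 (2.38), FOS (0.932), DUSP6 (0.8), BTG2 (0.685), ENSOCUG00000023743.1 (0.617), AHDC1 (0.572), IER3 (0.548), ENSOCUG00000025112.1 (0.498), KLF6 (0.435), CYR61 (0.433) and DUSP1 (0.347). Of these, TNFAIP3, NFKBIA, SERPINB2, BHLHE40, KLF10, FOS, DUSP1, CYR61 and the 2 identifiers moved at both concentrations, so that their size and not their direction differed.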

How the results depend on the processing

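The 84 called genes that were named by rule or passed the stricter test kept their sign in every setting that tested them. Other called genes chosen after their values were seen, such as IL6, LIF and CDKN1A, were not followed singly through the settings. The medians of 15 of 33 gene lists changed sign in at least 1 setting, the immediate early list among them (0.093, and -0.0648 over genes of at least 5 CPM). Of the pooled comparison's 289 genes, DESeq2 kept 287 among 580 calls, the fit with 1 treated group kept 157 of 157, and limma on log2(FPKM + 1) without a filter kept 104 of 107; leaving out single libraries gave 110 to 476 calls. The other settings gave 279 to 398. In all, 53 genes were called under each of the 21 settings. For 250 nM against 50 nM (40 genes), DESeq2 called 99, limma on unfiltered FPKM 11, and fits without 1 library 21 to 50. For genes that moved at both concentrations (23), DESeq2 called 88, edgeR with no filter 39, limma 7 on log2(FPKM + 1), 8 on log2(FPKM + 0.1) and 4 with no filter, and fits without 1 library 5 to 37. The fit with 1 treated group gives no value for the last 2. Over single genes and settings, 1597 values stayed on the same side of the threshold and 262 lost the call; the cause was not tested. STRA6 passed in none of the 21 settings.

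Same-numbered libraries of different groups had correlations of -0.0319 to 0.0359 in their deviations from the group means. For differently numbered libraries the range was -0.0795 to 0.0684. With 3 libraries per group, these correlations cannot decide whether the replicate numbers pair the libraries. Replicate 2 had the highest share of mitochondrially encoded counts in each group (5.82% in the controls, 5.41% at 50 nM and 5.48% at 250 nM). Replicate 2 also had the highest FN1 share and the lowest ribosomal share in each group, and the cause was not tested. With the replicate number as a block the pooled comparison called 350 genes (177 higher, 173 lower), the difference between concentrations 42 and the stricter test 23.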

Other observations

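LGI4, chosen after its values were seen, was at 0 in the 3 controls and had 0.217, 0.188 and 0.202 CPM at 50 nM and 0.201, 0.207 and 0.112 CPM at 250 nM. With 0 in the controls, LGI4 met the count filter only through its treated libraries. Its pass in the pooled comparison (edgeR adjusted p = 0.0224) is therefore not counted as support for a change. Its fitted fold is no measure of size at these counts.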
